A study of Mus musculus with 35 samples.

Results

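LHX2 peaks of IKDN pre-B cells were compared with Ikaros peaks of wild-type (WT) pre-B cells, to describe the sites where LHX2 was found in the mutant at places bound by Ikaros in the normal cells. A site counted as shared where an IKDN LHX2 peak and a WT Ikaros peak overlapped by at least 1 bp on chromosomes 1 to 19 and X. The comparison gave 9936 sites with both factors, 16683 sites with LHX2 alone and 32685 sites with Ikaros alone, 59304 sites in all. The 33 peak lists of the series together hold 1211551 peaks on these chromosomes. The study profiled stromal-adherent mouse pre-B cell progenitors at passages 3 to 8 by chromatin immunoprecipitation and sequencing, in 35 libraries of which 2 were inputs. WT cells carry unaltered Ikaros. IKDN cells come from IKDN CD2 Cre mice, which carry Cre recombinase under the CD2 promoter. The labels do not spell out IKDN, which is read here as dominant-negative Ikaros. How many animals or cultures stand behind a library is not given in the labels.

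Each genotype and target has 1 library. There is therefore no spread between replicates, no test and no p-value, and each interval below is an exact 95% Clopper-Pearson interval of a share of sites, which covers counting error only. LHX2 was mapped in IKDN cells only and Ikaros in WT cells only, so that the factor and the genotype cannot be told apart, and the sites with both are not sites where both proteins were seen in the same cells. If the scores of the lists are tag counts scaled to 10 M tags, which is an inference from their step size, the libraries held 19.7 M tags for LHX2, 36 M for Ikaros, and 25.2 M (WT) and 25.6 M (IKDN) for H3K27ac. Of the promoters of B cell markers that could be scored, 5 of 5 carried an H3K27ac peak in each genotype. Stromal fibroblast promoters carried H3K27ac at 0 of 5 in WT and 1 of 5 in IKDN, and H3K4me3 at 4 of 5 in WT and 1 of 5 in IKDN. T cell promoters carried H3K27ac at 1 of 7 in WT and 2 of 7 in IKDN, and H3K4me3 at 1 and 0. Myeloid promoters carried H3K27ac at 1 of 7 in WT and 2 of 7 in IKDN, and H3K4me3 at 2 and 1. The part of other cell types in the results was not tested.

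Ikaros, encoded by Ikzf1, is a zinc finger transcription factor that binds DNA at a core of TGGGAA and is needed for pre-B cells to leave the proliferating, stroma-attached stage and differentiate. LHX2 is a LIM homeodomain protein that binds cores of TAATTA and partners with LDB1 through its LIM domains. It is known from forebrain, hair follicle stem cells and haematopoietic progenitors rather than from B cells. H3K27ac, acetylation of histone H3 on lysine 27, marks active promoters and enhancers, while H3K4me1 marks enhancers whether active or not.

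The label of the LHX2 library names an antibody with the same catalogue number as the labels of the WT E2A and the IKDN ETS1 libraries. Which antibody was used cannot be settled from the labels, so the sequence of promoter windows that hold a peak centre was compared. No genome sequence was used, and the comparison rests on RefSeq promoter windows of the GRCm38.p6 build, each the 250 bases before a start site. The homeodomain core TAATTA, which reads the same on both strands, was present in 10.7% (9.08 to 12.5) of the 1328 windows that held the centre of an LHX2 peak. It was present in 1.16% of 1289 windows with an IKDN E2A peak, 1.31% of 1597 windows with a WT E2A peak, 1.29% of 4663 windows with an IKDN ETS1 peak and 4.80% of all 32585 windows. The E box CANNTG stood in 60.1% of the LHX2 windows, 78.0% of the IKDN E2A, 67.5% of the WT E2A and 53.3% of the IKDN ETS1 windows, and 66.3% of all windows. The ETS core GGAAGT stood in 30.3% of the LHX2, 24.6% of the IKDN E2A, 29.3% of the WT E2A and 35.4% of the IKDN ETS1 windows, and 19.8% of all windows. The LHX2 list thus stood apart by TAATTA. Its shares of the E box and the ETS core lay within the range of the E2A and ETS1 lists. Its share of the Ikaros core TGGGAA, 21.5%, lay above their range, from 18.3% for WT E2A to 19.8% for IKDN ETS1. The counting intervals overlapped, and the share of all windows was 21.7%. A letter match describes these windows and is not a site of binding. Base composition was not matched, peaks away from promoters were not covered, and which antibody was used was not tested.

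Split by class, TAATTA was found in 14.4% (11.6 to 17.6) of 548 windows with LHX2 alone, 8.28% (6.42 to 10.5) of 761 windows with both and 0.713% (0.462 to 1.05) of 3504 windows with Ikaros alone. The Ikaros core TGGGAA, searched on both strands, varied little, with 20.6% for LHX2 alone, 22.1% for both, 23.3% for Ikaros alone and 21.7% for all windows. The ETS core GGAAGT, which can overlap TGGGAA by their shared letters, was found in 22.1%, 36.1% and 31.4% of the same classes and in 19.8% of all windows. A few promoters are shown because they hold the centre of a top-scored promoter site of a class with a set H3K27ac state. Somewhere in the window they also hold a core of LHX2 or Ikaros. The set states were IKDN only or both genotypes for sites with both, IKDN only for LHX2 alone and WT only for Ikaros alone. The genotype with H3K27ac at these promoters was thus fixed by the choice and is not a result. Each line gives the 250 bases before the start site, 5′ to 3′ on the strand of the gene, with capitals for TAATTA and for TGGGAA or its complement TTCCCA.
Gm5122: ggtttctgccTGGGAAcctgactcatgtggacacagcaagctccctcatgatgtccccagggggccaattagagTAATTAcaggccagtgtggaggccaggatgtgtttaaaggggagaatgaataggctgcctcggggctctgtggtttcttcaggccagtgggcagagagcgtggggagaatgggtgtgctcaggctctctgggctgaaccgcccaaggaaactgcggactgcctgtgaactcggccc
Acp6: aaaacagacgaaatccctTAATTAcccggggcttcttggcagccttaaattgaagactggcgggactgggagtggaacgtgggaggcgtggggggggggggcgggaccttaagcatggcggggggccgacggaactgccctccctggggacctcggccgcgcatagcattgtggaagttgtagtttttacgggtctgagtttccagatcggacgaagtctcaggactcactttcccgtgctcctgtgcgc
Insc: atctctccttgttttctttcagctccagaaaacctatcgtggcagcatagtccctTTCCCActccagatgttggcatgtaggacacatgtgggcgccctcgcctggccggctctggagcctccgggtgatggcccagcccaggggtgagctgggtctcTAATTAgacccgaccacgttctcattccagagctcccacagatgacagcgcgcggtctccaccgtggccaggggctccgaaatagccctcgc
Ptgs1: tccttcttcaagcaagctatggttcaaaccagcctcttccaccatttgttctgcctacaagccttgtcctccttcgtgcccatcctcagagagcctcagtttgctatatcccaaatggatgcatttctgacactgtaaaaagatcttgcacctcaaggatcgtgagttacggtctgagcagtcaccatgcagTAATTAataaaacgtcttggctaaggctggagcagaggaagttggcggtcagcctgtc
Rag1: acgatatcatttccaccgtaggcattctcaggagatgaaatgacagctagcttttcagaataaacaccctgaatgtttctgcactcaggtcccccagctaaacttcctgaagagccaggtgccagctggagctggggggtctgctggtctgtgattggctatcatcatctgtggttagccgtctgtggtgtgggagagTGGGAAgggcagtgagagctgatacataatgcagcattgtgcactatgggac

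The Gm5122 window, chr9:61016819-61017068 on the plus strand, held both cores and a site with both factors. That site had an LHX2 score of 341 and an Ikaros score of 14.7. Its 5 kb neighbourhood had no base under an H3K27ac peak in WT and 629 bp in IKDN. Acp6, at chr3:97158527-97158776 on the plus strand, encodes a lysophosphatidic acid phosphatase. Its site had both factors, with scores of 65.6 for LHX2 and 5.83 for Ikaros, and H3K27ac covered 3218 bp in WT and 3051 bp in IKDN. The TAATTA of this window lies outside the site, and the capitals of the other windows shown lie inside theirs. Insc, at chr7:114745516-114745765 on the plus strand, encodes the spindle orientation adaptor Inscuteable. Its site had LHX2 alone with a score of 25.9, and acetylation covered 0 bp in WT and 3544 bp in IKDN. Ptgs1, at chr2:36230176-36230425 on the plus strand, encodes a cyclooxygenase of prostaglandin synthesis. Here LHX2 alone had a score of 29.5, with 500 bp acetylated in WT and 2598 bp in IKDN. Rag1, at chr2:101649533-101649782 on the minus strand, encodes the recombinase that joins antigen receptor gene segments. The site had Ikaros alone with a score of 15.6, and H3K27ac covered 3968 bp in WT and 0 bp in IKDN.

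A minority of the IKDN LHX2 peaks lay on a WT Ikaros peak. Of 26620 LHX2 peaks, 9937 overlapped an Ikaros peak (37.3%, 36.7 to 37.9), and of 42621 Ikaros peaks, 9936 overlapped an LHX2 peak (23.3%, 22.9 to 23.7). Peaks in both lists are narrow, with medians of 168 bp for LHX2 and 176 bp for Ikaros. The centres of overlapping peaks lay a median of 55.0 bp apart, 46.8% within 50 bp and 77.1% within 100 bp. The share depended on the overlap rule: it was 26.6% of LHX2 peaks when at least 50% of the shorter peak had to overlap and 53.0% when centres within 1000 bp counted.

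The overlap was more frequent among strong peaks of either factor. In the lowest score decile of the LHX2 list 29.4% of peaks overlapped Ikaros, and in the highest 50.8%. Across the Ikaros list the share went from 9.01% in the lowest decile to 52.0% in the highest. The middle 50% of the sites with both had LHX2 scores from 6.61 to 16.3, against 6.10 to 12.2 for LHX2 alone, and Ikaros scores from 6.11 to 16.9, against 4.17 to 9.17 for Ikaros alone. Strong sites of each factor were thus over-represented among the shared ones, and this holds within each list, where scores share a scale.

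**Figure D1:**
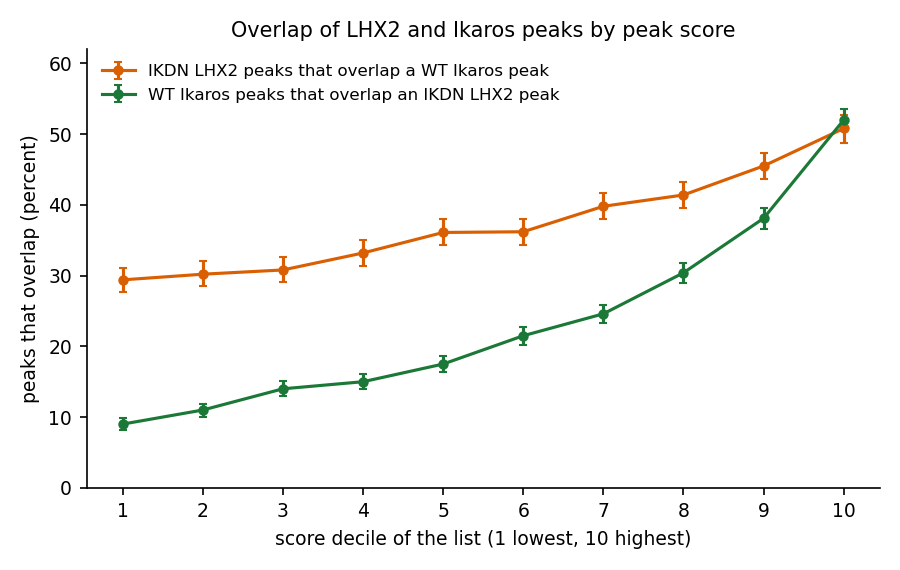
Percent of IKDN LHX2 peaks that overlap a WT Ikaros peak and percent of WT Ikaros peaks that overlap an IKDN LHX2 peak, by score decile of each list. Points are shares and bars are exact 95% intervals of counting error. Both curves climb, from 29.4% to 50.8% for LHX2 and from 9.01% to 52.0% for Ikaros.

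Overlap with Ikaros was not highest for LHX2 among the IKDN lists. It was 55.8% for LMO2, a LIM-only adaptor of haematopoietic progenitor complexes, 51.5% for IRF4, 50.9% for the E protein E2A, 46.4% for ETS1, 27.3% for the Hippo pathway factor TEAD1, 23.9% for EBF1 and 23.1% for PAX5. These lists differ in length and depth, which the shares do not take into account.

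The 3 classes differed in place. Within 2.5 kb of a transcription start site (TSS) lay 22.2% (21.4 to 23.1) of the sites with both, 18.9% (18.3 to 19.5) of those with LHX2 alone and 33.4% (32.9 to 33.9) of those with Ikaros alone. The median distance to the nearest TSS was 18850 bp, 23507 bp and 11520 bp in the same order. Promoter annotation was given to 13.3% of the sites with both, 8.30% with LHX2 alone and 20.1% with Ikaros alone, and intron annotation to 37.6%, 42.7% and 36.7%. Intergenic annotation was given to 44.7%, 45.0% and 37.4%. All 3 classes thus lay mainly at introns and intergenic regions, and the Ikaros-alone sites were nearer to a TSS. CpG island annotation was rare, with 1.09%, 1.30% and 3.50%. LINE repeats held 5.31% of the sites with both, 7.33% with LHX2 alone and 4.48% with Ikaros alone. Near ribosomal RNA copies lay 0 sites with both, 24 with LHX2 alone and 19 with Ikaros alone.

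H3K27ac also differed between the classes. Of the sites with both factors, 65.0% (64.0 to 65.9) carried an H3K27ac peak in both genotypes, against 31.2% (30.5 to 31.9) with LHX2 alone, 47.0% (46.4 to 47.5) with Ikaros alone and a background of 45.5% over all sites. A peak in IKDN only was found at 20.5% (19.9 to 21.1) of the LHX2-alone sites, 9.38% (8.81 to 9.97) of the sites with both and 5.19% (4.95 to 5.43) of the Ikaros-alone sites, with a background of 10.2%. A peak in WT only was found at 12.7% (12.3 to 13.1) of the Ikaros-alone sites, 8.01% (7.48 to 8.56) of the sites with both and 4.29% (3.99 to 4.61) of the LHX2-alone sites, with a background of 9.54%. Neither genotype had a peak at 17.6%, 44.0% and 35.2% of the sites with both, LHX2 alone and Ikaros alone. Sites with both were the most often acetylated and most of them were so in each genotype. This share also went with peak strength. In 4 equal groups of Ikaros score, from weakest to strongest, it was 27.6%, 49.3%, 63.9% and 80.7% for the sites with both. For Ikaros alone it was 24.4%, 44.6%, 57.3% and 71.9% in the same groups. The gap between these 2 classes was thus narrower within groups of like Ikaros score than over all sites.

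**Figure D2:**
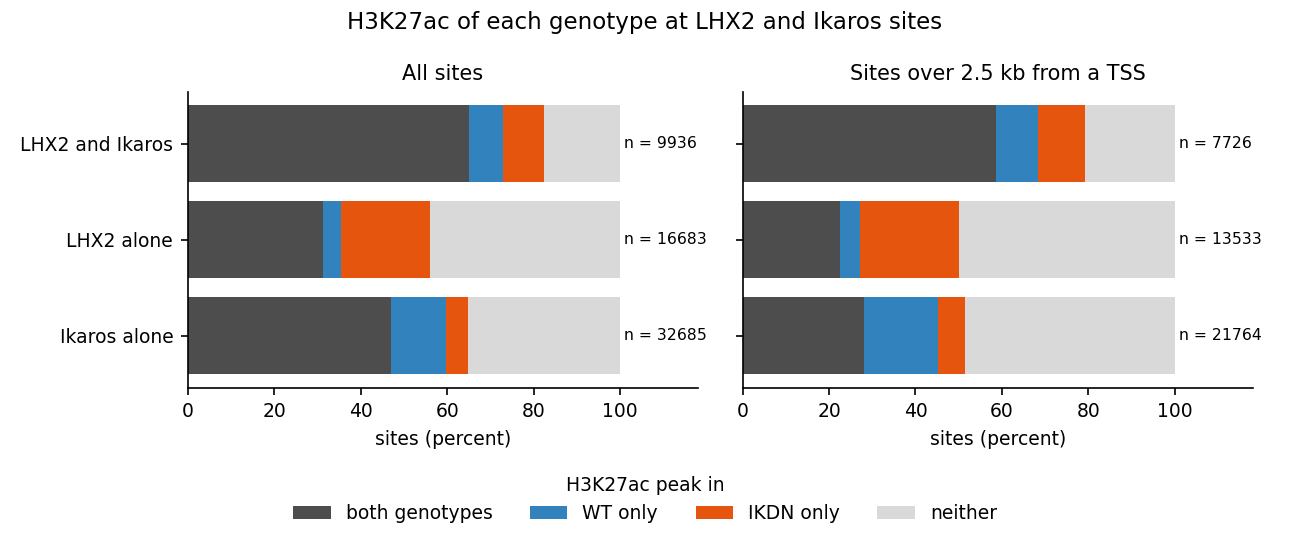
Percent of sites of each class with an H3K27ac peak in both genotypes, in WT only, in IKDN only or in neither, for all sites (left) and for sites farther than 2.5 kb from a TSS (right). n is the number of sites. The IKDN-only segment is widest for LHX2 alone (20.5% of all sites) and the WT-only segment for Ikaros alone (12.7%).

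Among the sites acetylated in 1 genotype, IKDN made up 6048 of 11708 over all classes (51.7%, 50.7 to 52.6). It made up 932 of 1728 such sites with both (53.9%, 51.6 to 56.3), a share near that of all sites, 3421 of 4137 with LHX2 alone (82.7%, 81.5 to 83.8) and 1695 of 5843 with Ikaros alone (29.0%, 27.8 to 30.2). Beyond 2.5 kb from a TSS the shares were 53.1%, 83.4% and 27.3%, and nearer to a TSS 63.2%, 76.8% and 41.0%. The share at the sites with both crossed 50% under other settings. It was 48.3% with the top-scored 50% of both factor lists, 46.1% with equal numbers of top-scored factor peaks and 46.1% with H3K4me1 in place of H3K27ac. The direction at the other classes was kept in these 3 settings, with 81.2% to 85.0% for LHX2 alone and 22.6% to 26.3% for Ikaros alone.

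The length covered by H3K27ac peaks gave the same order. In the 5 kb around a site with both, the mean was 2242 bp in WT and 2195 bp in IKDN, a ratio of 0.979. Around LHX2-alone sites the means were 1152 bp in WT and 1595 bp in IKDN, 1.38 times the WT length, and around Ikaros-alone sites 1628 bp and 1405 bp, a ratio of 0.863. Distal sites showed wider gaps, with ratios of 0.967, 1.56 and 0.746.

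These shares also moved with peak strength. When LHX2 peaks were put into 4 equal groups by score, IKDN made up 45.8%, 52.6%, 51.8% and 61.9% of the sites with both that were acetylated in 1 genotype, from the weakest to the strongest group. With LHX2 alone it made up 78.2%, 77.2%, 83.6% and 89.9%. The same division of the Ikaros peaks gave 75.7%, 65.3%, 49.6% and 38.8% for the sites with both, and 41.8%, 30.5%, 22% and 18.6% for Ikaros alone. The IKDN share was thus higher in the strongest than in the weakest LHX2 group, and lower in the strongest than in the weakest Ikaros group. In each score group the sites with both lay below LHX2 alone and above Ikaros alone.

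The contrast between sites with and without Ikaros was shared by 7 of the 8 other IKDN factor lists compared. The IKDN list of the Mediator subunit MED1 was not among them. Taken over the footprint of the factor's own peak, IKDN made up 53.6% of the 1-genotype peaks of LHX2 at Ikaros sites and 82.7% elsewhere. The pair of values was 54.6% and 89.2% for LMO2, 56.8% and 81.2% for TEAD1, 57.2% and 89.9% for E2A, 60.1% and 88% for ETS1, 57.9% and 87.0% for IRF4, 52.2% and 81.1% for EBF1, and 49.5% and 79.1% for PAX5. The exception was the short list of Aiolos, with 87.9% and 88.9% over 124 and 314 peaks. For lists from WT cells both values were lower, as in 30.5% and 50.4% for PAX5. The contrast described for LHX2 was thus not particular to it.

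Other factors gathered at the sites with both. IKDN LMO2 peaks lay at 46.5% (45.5 to 47.5) of the sites with both, 17.7% (17.1 to 18.2) with LHX2 alone and 12.1% (11.8 to 12.5) with Ikaros alone. TEAD1 in IKDN was found at 50.3%, 26.3% and 24.3%, and TEAD1 in WT at 23.0%, 6.85% and 13.2%. The B lineage factor PAX5 in IKDN lay at 70.9%, 36.5% and 43.5%, IRF4 at 58.9%, 21.4% and 28.2%, ETS1 at 55.8%, 18.5% and 32.9%, E2A at 37.4%, 11.9% and 12.3%, and EBF1 at 30.1%, 14.8% and 15.1%. The Mediator subunit MED1, which links enhancers to RNA polymerase II, occupied 59.1%, 31.2% and 39.2% in IKDN and 24.2%, 7.66% and 19.2% in WT. The lists of the genotypes differ in length, with 24201 MED1 peaks in IKDN and 12062 in WT, and 47671 and 33450 TEAD1 peaks. The shares do not take this into account, so they do not show a difference in binding between the genotypes. In WT cells the factors were found at LHX2-alone sites less often than at Ikaros-alone sites, for example PAX5 at 19.2% against 46.4% and ETS1 at 5.82% against 27.9%. The repressive mark H3K27me3 was rare, at 3.25% of the sites with both, 7.49% with LHX2 alone and 5.72% with Ikaros alone in WT. LMO2 and TEAD1 together covered 27.7% (26.8 to 28.6) of the sites with both and 8.85% (8.42 to 9.29) of the LHX2-alone sites. Neither was found at 30.9% and 64.9%.

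**Figure D3:**
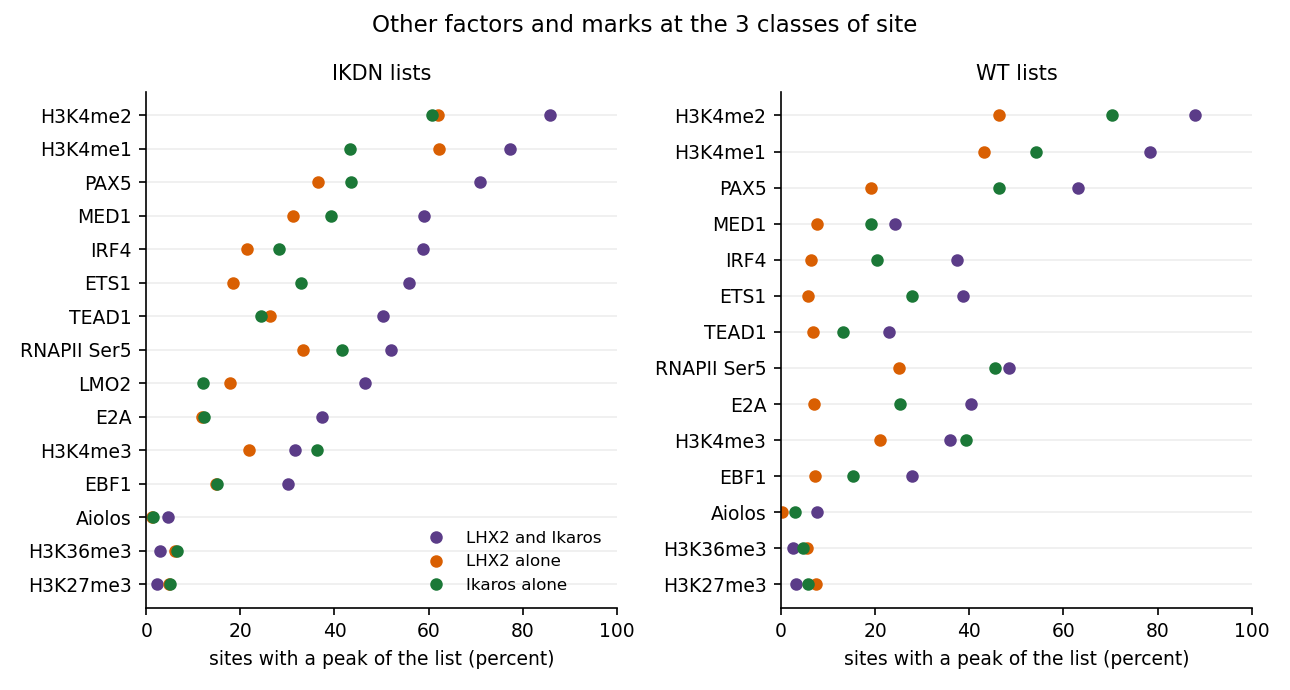
Percent of sites of each class that carry a peak of each other list, IKDN lists on the left and WT lists on the right, with 1 point per class. Sites with LHX2 and Ikaros lie to the right of the other classes for all factors shown, and to the left for H3K36me3 and H3K27me3. For H3K4me3 the Ikaros-alone sites lie furthest right.

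The classes differed in WT state at distal sites, whether or not acetylation was confined to IKDN. Over all distal sites, WT H3K4me1 was present at 85.8% with both, 60.5% with Ikaros alone and 41.2% with LHX2 alone, and WT PAX5 at 63.7%, 43.1% and 18.5%. Of the distal sites acetylated in IKDN only, a WT H3K4me1 peak was present at 76.8% of 846 with both, 67.2% of 1395 with Ikaros alone and 33.4% of 3099 with LHX2 alone. IKDN H3K4me1 was present at 95.4%, 83.9% and 93.9%. WT PAX5 lay at 51.3% of the sites with both, 41.9% with Ikaros alone and 11% with LHX2 alone, while IKDN PAX5 lay at 78.4%, 58.3% and 52.1%. Most IKDN-only acetylated sites with a WT Ikaros peak thus carried a WT H3K4me1 peak, and most of those with LHX2 alone did not. LMO2 or TEAD1 or both were found at all but 22.9% of the IKDN-only sites with both and all but 43.4% of those with LHX2 alone. The shares with neither were 21.1% and 56.5% for the distal sites acetylated in both genotypes, and 37.7% and 70.4% for those acetylated in WT only.

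LHX2 sites outside Ikaros peaks were mostly near genes that also held Ikaros peaks. LHX2-alone sites were nearest to 6934 protein-coding genes, and 5760 of these (83.1%) were also nearest to an Ikaros peak, where 59.6% of all 21627 protein-coding genes were. Neither share takes gene length into account, and its part in the difference was not tested. The median distance from an LHX2-alone site to the nearest Ikaros peak was 5624 bp. Of the LHX2-alone sites 25.1% had an Ikaros peak within 1 kb, 59.0% within 10 kb, and 11.4% had none within 100 kb. The 5 genes with the most LHX2-alone sites and no Ikaros peak, chosen after their values were seen, were Slc7a11, Plk2, Cers6, Slco3a1 and Zfp536. Slc7a11, a cystine transporter, had 15 sites of which 7 were acetylated in IKDN only, Plk2, a polo-like kinase, 13 of which 6 were, and Zfp536, a zinc finger gene, 10 of which 5 were, with no site acetylated in WT at these genes. Cers6, a ceramide synthase, had 12 sites, 6 acetylated in IKDN only and 4 in both genotypes, and Slco3a1, an organic anion transporter, 10 sites with 6 and 4.

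By gene name, the top-scored sites with both were at 4932413F04Rik, Odf1, Optn, Gm5122 and Arid1b, with LHX2 scores of 445, 438, 410, 341 and 314. The Odf1 site, chr15:38176410-38176632, is intergenic, 42655 bp upstream of a sperm tail protein gene. Its neighbourhood had no acetylation in WT and 3067 bp in IKDN, and both LMO2 and TEAD1 were there. The Optn site, chr2:5045266-5045454, lies in an intron of an autophagy receptor gene and was acetylated over 2864 bp in WT and 4696 bp in IKDN. Arid1b, a subunit of the BAF chromatin remodeller, had the site farthest from a start, 368742 bp upstream, without H3K27ac in either genotype.

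The strongest sites of the single-factor classes were partly at repeated sequence or without acetylation. Of the 5 top LHX2-alone sites, those nearest to Pex2 and Rn45s lay at ribosomal RNA copies and had no H3K27ac. The site in an intron of Kcnma1, a potassium channel gene, scored 422 and was acetylated over all 5000 bp in both genotypes. The sites at 4933432K03Rik and 4930547E08Rik were acetylated in IKDN only, over 1535 bp and 1085 bp. Of the 5 top Ikaros-alone sites, at Cdkn2a, Gm9961 (with 2 sites), Mir6906 and Gtpbp4, the Mir6906 site was acetylated, in both genotypes. The Cdkn2a site, chr4:89285127-89285303, had the highest score of that class, 273, and lies in an intron of the gene for the cell cycle inhibitors p16Ink4a and p19Arf.

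Among the sites with both that were acetylated in IKDN only, the top-scored after Odf1 and Gm5122 were at Tecpr2, Tbx19 and 2610035D17Rik. At the Tbx19 promoter, 867 bp upstream of the T-box factor gene, H3K27ac covered 0 bp in WT and 5000 bp in IKDN. The top sites with both that were acetylated in WT only were at Maf, Mir28c, Neurl3, Jade2 and Gpr20. The Maf site, chr8:115414140-115414432, lies 292670 bp from the start of that bZIP factor gene, with LHX2 and Ikaros scores of 152 and 20.8, and H3K27ac covered 1689 bp in WT and 0 bp in IKDN. LHX2 was thus also found in IKDN at sites that carried acetylation in WT and not in IKDN. The top Ikaros-alone sites acetylated in WT only, nearest to Gm21119, 6820431F20Rik and 2610005L07Rik, all lie in a repeated block of chromosome 8 between 19 and 22 Mb, where the 3 classes had 25 Ikaros-alone, 6 shared and 1 LHX2-alone site.

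Trio, which encodes a guanine nucleotide exchange factor that acts on actin and adhesion, had sites almost all on the IKDN side. It was nearest to 4 sites with both, 21 with LHX2 alone and 0 with Ikaros alone. H3K27ac was present in IKDN only at 21 of these 25 sites, in both genotypes at 2, in neither at 2 and in WT only at 0. The strongest, chr15:28081123-28081291 with an LHX2 score of 237, lies 55359 bp upstream and had 0 bp acetylated in WT and 2736 bp in IKDN. LMO2 lay at 13 and TEAD1 at 10 of the 25 sites, and WT H3K4me1 at 5.

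Nedd9, an adaptor of focal adhesions and integrin signalling, had 16 sites with both, 11 with LHX2 alone and 8 with Ikaros alone. Of the 16 shared sites 13 were acetylated in both genotypes, 1 in WT only and 2 in neither. The 3 IKDN-only sites had LHX2 alone, and of the 4 WT-only sites 3 had Ikaros alone and 1 had both. LMO2 and TEAD1 each lay at 14 of the 27 LHX2 sites. Bank1, a B cell scaffold protein of receptor signalling, had 6, 6 and 10 sites of the classes both, LHX2 alone and Ikaros alone, and 11 of these 22 sites were acetylated in WT only and 0 in IKDN only. The 11 WT-only sites were 4 with both and 7 with Ikaros alone.

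Ikzf1 itself was nearest to 3 sites with both, 4 with LHX2 alone and 9 with Ikaros alone, and 11 of these 16 were acetylated in both genotypes. The strongest shared site, chr11:11658883-11659111, lies 27246 bp upstream with an Ikaros score of 70.6 and an LHX2 score of 38.1. The 3 IKDN-only sites were 1 of each class. Ikzf3, which encodes the related factor Aiolos, had 1 site with both, 2 with LHX2 alone and 1 with Ikaros alone. Of these 4 sites 2 were acetylated in both genotypes and 2 in IKDN only. Lhx2 had 1 site with both, 2 with LHX2 alone and 5 with Ikaros alone. Near annotated start sites, an Ikaros-alone site of score 17.5, 387 bp upstream, was acetylated in both genotypes, and one of score 3.61, 550 bp upstream of another start, in IKDN only.

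**Figure D4:**
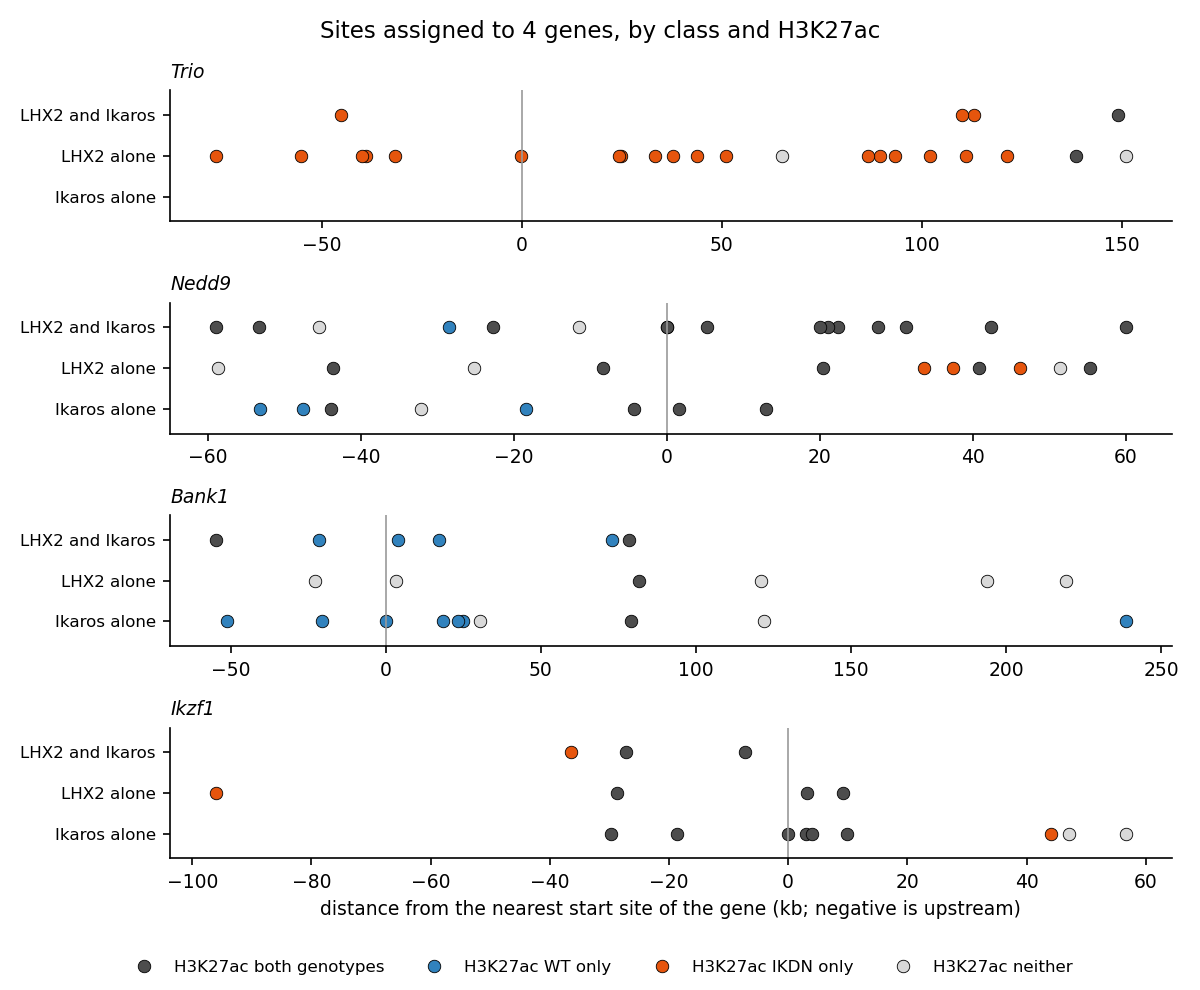
Sites nearest to Trio, Nedd9, Bank1 and Ikzf1 by distance in kb from the nearest annotated start site of the gene (horizontal axis, negative is upstream), by class (vertical position) and by the genotype with an H3K27ac peak (colour). At Trio 21 of 25 sites were acetylated in IKDN only, at Bank1 11 of 22 in WT only, and at Ikzf1 11 of 16 in both genotypes.

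Other genes with many sites were mixed. Runx1, a haematopoietic transcription factor, had 9 sites with both, 18 with LHX2 alone and 17 with Ikaros alone, with 27 of 44 acetylated in both genotypes, 5 in IKDN only and 2 in WT only. Tbl1xr1, a corepressor subunit, had 5, 19 and 19, and Zfp608, a zinc finger protein gene, 14, 16 and 19. Nucb2, the gene of the calcium-binding nucleobindin from which nesfatin is made, had 7, 18 and 1, with 12 of 26 acetylated in IKDN only and 1 in WT only. The noncoding gene 4930553E22Rik had 0, 18 and 3, with 10 of the 21 in IKDN only and 0 in WT only.

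The gene lists were read against all protein-coding genes, of which 23.7% were nearest to at least 1 site with both, 32.1% to an LHX2-alone site, 54.6% to an Ikaros-alone site, 13.5% to a site acetylated in IKDN only and 12.0% to one acetylated in WT only. Gene length was not taken into account in these shares. Over all protein-coding genes, 5015 sites were acetylated in IKDN only and 4734 in WT only, an IKDN share of 51.4% (50.4 to 52.4). This interval and those of the lists below treat sites as independent, although several sites often have the same nearest gene. They describe counting error and do not test a list.

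B lineage identity genes held sites with both at 21 of 25 genes (84.0%) and Ikaros-alone sites at 24 of 25. For sites with both, every list lay above the background of 23.7%. The other lists ranged from 38.5% (junction and polarity) to 76.0% (pre-B differentiation). LHX2-alone sites were nearest to 16 of 25 (64.0%). Of their sites acetylated in 1 genotype, 14 were in IKDN only and 40 in WT only, an IKDN share of 25.9% (15.0 to 39.7). Counted by gene, 7 of 25 had an IKDN-only site (28%) and 12 a WT-only site (48.0%). Without Bank1 the numbers were 14 and 29. Blk, a Src-type kinase in B cell receptor signalling, had Ikaros alone at all of its 8 sites, and 5 of these were acetylated in WT only. Foxo1, a transcription factor of early B cells, had 11, 9 and 19 sites of which 7 were in IKDN only and 4 in WT only. Ralgps2 had 6, 2 and 6, with 1 in each genotype only.

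Genes of pre-B differentiation and pre-B cell receptor signalling had more WT-only than IKDN-only sites as well. Sites with both were nearest to 19 of 25 (76.0%) and LHX2-alone sites to 23 of 25 (92.0%), and 22 sites were acetylated in IKDN only against 55 in WT only (28.6%, 18.8 to 40.0). At least 1 IKDN-only site was nevertheless nearest to 11 of these 25 genes (44.0%) and 1 WT-only site to 16. Cxcr4, the chemokine receptor that holds B progenitors in the marrow, had 10, 10 and 17 sites, 13 of them acetylated in WT only and 1 in IKDN only. Without it the numbers were 21 and 42. Ets1 had 5, 5 and 11 sites, 14 of 21 acetylated in both genotypes. Ikzf2, encoding Helios, had LHX2 alone at 3 sites.

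The integrin and focal adhesion list was on the opposite side, with 60 sites acetylated in IKDN only and 5 in WT only (92.3%, 83.0 to 97.5). An IKDN-only site was nearest to 14 of the 31 genes (45.2%) and a WT-only site to 3. Sites with both were nearest to 18 of 31 genes (58.1%), LHX2-alone sites to 23 of 31 (74.2%) and Ikaros-alone sites to 18 of 31. A single gene weighed heavily: Trio gave 21 of the 60, and without it 39 sites in IKDN only stood against 5 in WT only (88.6%, 75.4 to 96.2). Of the 60 sites, 42 had LHX2 alone, 8 had both and 10 had Ikaros alone. Tns3, a tensin, had 7, 11 and 14 sites, with 20 of 32 acetylated in both genotypes, 9 in IKDN only and 2 in WT only. Itga4, an integrin alpha chain, had 4, 6 and 10, with 12 of 20 acetylated in both and 0 in 1 genotype, and Ptk2b, a focal adhesion kinase family member, had 6, 2 and 4, with 9 of 12 acetylated in both, 2 in WT only and 0 in IKDN only.

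Junction and polarity genes had 16 sites in IKDN only and 2 in WT only (88.9%, 65.3 to 98.6), of which Pard3, a scaffold of the PAR polarity complex, gave 7 and 0. Without it the numbers were 9 and 2 (81.8%, 48.2 to 97.7), an interval that includes the share of all genes. Pard3 had 3 sites with both, 11 with LHX2 alone and 2 with Ikaros alone. Sites with both were nearest to 10 of 26 genes of this list (38.5%). For Ctnnb1, encoding beta-catenin, the 3 classes had 1 site each, and Cldn1, a tight junction claudin, had LHX2 alone at 3 sites.

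On the Hippo and YAP-TEAD list 30 sites were acetylated in IKDN only and 15 in WT only (66.7%, 51.0 to 80.0), and without Nuak2 23 and 15 (60.5%, 43.4 to 76.0), an interval that includes the share of all genes. Sites with both were nearest to 12 of 25 genes (48.0%). Nuak2, a kinase gene and YAP target, had 3, 4 and 2 sites of which 7 were in IKDN only. Ptpn14, a phosphatase that restrains YAP, had LHX2 alone at all 8 of its sites, and 6 were in IKDN only. Tead1 had 4, 7 and 12 sites with 4 in IKDN only and 2 in WT only. Vgll4, a TEAD cofactor, had 3, 4 and 11 with 14 of 18 acetylated in both genotypes, and Mob1a had Ikaros alone at 4 sites. Stk3, a core Hippo kinase chosen after its values were seen, had 2, 4 and 11, with 6 in WT only and 0 in IKDN only.

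The list of LIM complex and progenitor factors had 23 sites in IKDN only and 12 in WT only (65.7%, 47.8 to 80.9), and the cell cycle list 10 and 7 (58.8%, 32.9 to 81.6). Both intervals include the share of all genes. Sites with both were nearest to 11 of 25 (44.0%) and 10 of 25 (40.0%) of their genes. Hlf, a transcription factor of haematopoietic stem cells, had 5 sites, all with LHX2 alone and all acetylated in IKDN only. Lmo2 had 5, 7 and 8 sites, 12 acetylated in both genotypes, 4 in IKDN only and 0 in WT only. Gfi1, a repressor in progenitors, had 3 of each class with 8 of 9 acetylated in both, and Mycn had 4, 3 and 8 with 1 in IKDN only and 3 in WT only. Ccnd3, the cyclin D of pre-B cell expansion, had 2, 2 and 9 sites, with 9 of 13 acetylated in both genotypes and 4 in WT only. Ccnd3 is on the cell cycle list and on the pre-B differentiation list. Its 4 WT-only sites are counted in both, among the 7 of the cell cycle list. Rb1 had 3, 1 and 3, with 5 of 7 in both genotypes.

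**Figure D5:**
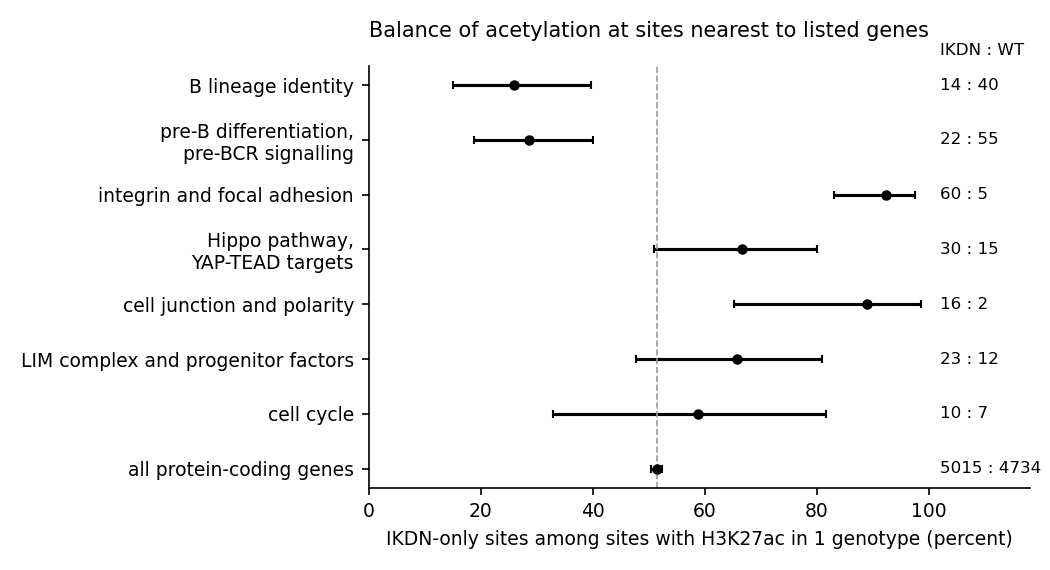
Percent of IKDN-only sites among sites acetylated in 1 genotype, for the sites of all 3 classes nearest to the genes of each list, with exact 95% intervals of counting error. Numbers at the right are IKDN-only and WT-only sites, and the dashed line is the share of all protein-coding genes, 51.4%. The 2 B cell lists lie to the left of it and the adhesion and junction lists to the right. Several sites can have the same nearest gene, which the intervals do not take into account.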

How the data were processed

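Chromatin immunoprecipitation libraries of WT and IKDN pre-B cells were used as the authors' deposited peak lists. Per the file headers each list gives peak coordinates, a Peak Score, the Distance to TSS and the nearest gene, in the layout of HOMER annotation. The peak score is used as the authors deposited it, its scale is not stated, and it served only to rank peaks within a list. Tools listed without roles in the submitters' processing notes are HOMER, BWA, STAR and bcl2fastq 1.8.3, with builds mm10 and mm9. Positions match GRCm38 (mm10): 99.1% of the start sites implied by the LHX2 list and 99.2% of those implied by the Ikaros list lay within 1000 bp of their gene.

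Peaks on chromosomes 1 to 19 and X were overlapped by at least 1 bp with Python 3.11.15, pandas 2.3.3, numpy 2.4.6 and scipy 1.17.1, and figures were drawn with matplotlib 3.10.9. Overlapping peaks of both lists were merged into 1 site. H3K27ac was scored over the whole site, and other lists over its LHX2 peak, or over the Ikaros peak where there was none. The lists of WT E2A, WT ETS1 and IKDN PAX5 break off or lack peaks on some chromosomes, judged by a gap of more than 10 Mb at the end, and were used on their 11, 19 and 18 complete chromosomes. Gene names altered to dates were read back through their Entrez numbers (59 LHX2 and 82 Ikaros peaks). The overlap and merging steps were tested on simulated data. With 1 library per group no test was run.

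Named genes are Ikzf1, Ikzf3 and Lhx2, the genes nearest to the 5 top-scored sites of each class and of 4 acetylation states, the 5 genes with the most sites per class, and, per gene list, the 3 with the most shared sites and members with at least 3 sites of 1 class only. Not every gene this rule selects is reported here. The members, lists and rules were chosen with earlier results of these data known. The sites nearest to a gene are those for which the deposited list names it, and nearness does not show which gene a site acts on.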

Additional observations from a re-analysis of the deposited data

How the results depend on the processing

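In the order both, Ikaros alone and LHX2 alone, the share of sites near a TSS was 21.3%, 32.7% and 19.7% with an overlap of at least 50% of the shorter peak, 26.9%, 32.0% and 12.5% with centres within 1000 bp, and 16.8%, 36.3% and 16.0% with the top-scored 50% of both factor lists. At 1 kb from a TSS it was 16.8%, 28% and 12.1%, and with equal numbers of factor peaks Ikaros alone had 37.7%. The overlap was 26.6% of LHX2 and 16.6% of Ikaros peaks with the 50% rule, 53.0% and 34.4% with centres within 1000 bp, 32.9% and 20.6% with the top-scored 50%, and 30.1% of each with equal numbers.

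The IKDN share among sites acetylated in 1 genotype turned below 50% at the sites with both in 3 settings: 48.3% with the top-scored 50%, 46.1% with equal numbers of factor peaks and 46.1% with H3K4me1 in place of H3K27ac. It was 51.4% with equal numbers of H3K27ac peaks. For Ikaros alone and LHX2 alone it was 30.7% and 79.2% with the 50% rule, 26.3% and 86.5% with centres within 1000 bp, 22.9% and 85.0% with the top-scored 50%, and 26.3% and 81.2% with H3K4me1. For Ikaros alone it was 22.6% with equal numbers of factor peaks, 26.9% with equal numbers of H3K27ac peaks and 27.3% at distal sites. The cause was not tested. Of 59 values under alternatives, 33 left the counting interval of the reported value, 3 turned as given above and 23 stayed inside, among them all 8 with autosomes only. The alternatives without repeated and immunoglobulin loci, and with H3K27ac over the LHX2 peak only (53.6% at the sites with both), were chosen after seeing the data.

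No paired analysis was possible because each genotype and target has 1 library and the labels give no replicate numbers. Leaving out a library was likewise not done, since a group would then be empty. Peak presence depends on depth and on the caller's threshold, so a site without a peak is not a site without signal, and the lists give no tag counts at such sites.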

Other observations

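The antigen receptor loci held sites that the lists name by other genes in or near them. Examples are Rprl1, Rpia and 4930515G16Rik for the immunoglobulin kappa locus and Mir6388 for the heavy chain locus. Counted by RefSeq coordinates, the kappa locus (chr6:67555636-70726754) held 46 sites with both factors, 14 with LHX2 alone and 173 with Ikaros alone. Of the 46 shared sites 27 were acetylated in WT only, 13 in both genotypes and 0 in IKDN only, and of the 173 Ikaros-alone sites 107 were acetylated in WT only and 1 in IKDN only. LHX2 was thus found in IKDN at kappa sites that carried acetylation in WT and not in IKDN. WT H3K4me1 lay at 138 and IKDN H3K4me1 at 23 of the 173, and PAX5 at 90 in WT and 27 in IKDN.

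The heavy chain locus (chr12:113258768-116009954) held 52, 18 and 131 sites of the same classes. Acetylation in both genotypes was found at 32 of its 52 shared sites, in WT only at 9 and in IKDN only at 1. Of the 131 Ikaros-alone sites 54 were acetylated in WT only and 0 in IKDN only. H3K4me1 lay at 47 of the 52 shared heavy chain sites in WT and 45 in IKDN, and at 44 of the 46 shared kappa sites in WT and 23 in IKDN. The lambda locus (chr16:19026858-19260844) had 10, 5 and 9 sites, 10 of the 24 acetylated in WT only. At the T cell receptor alpha locus (chr14:52427967-54224198), where the list names A430107P09Rik, 16, 18 and 91 sites were found, with 7, 7 and 44 acetylated in WT only and 1 in IKDN only in each class.

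Read depth over segments that recombine was not measured, and its part in these values was not tested. Without the kappa and heavy chain loci, the ribosomal RNA copies and the block on chromosome 8, IKDN made up 55.1% of the shared sites acetylated in 1 genotype, 82.8% of those with LHX2 alone and 29.9% of those with Ikaros alone.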
